A study of Mus musculus with 14 samples.

Results

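Cell cycle and DNA replication genes were followed in bulk RNA of mouse heart after irradiation of the chest. The list holds 47 genes chosen by name, from the cyclins and kinases of mitosis to the helicase that opens DNA for replication, and each of the 47 symbols was found once among the 54532 genes of the count table. Heart RNA came from 14 male C57BL/6J mice of the genotype labelled WT, 1 library per mouse, and all mice were 8 weeks old when the irradiated ones were exposed. IRR_1d (n = 3) and IRR_6w (n = 4) are hearts labelled radiation, taken 1 day and 6 weeks after a local dose of 30 Gy of cobalt γ-rays to the front of the chest, under pentobarbital and with the rest of the body behind lead. Control_1d (n = 3) and Control_6w (n = 4) are hearts labelled control, taken at those times without a dose (0 Gy). The library Control_6w replicate 3 also holds thymus RNA, and thymus is rich in dividing cells, so fits are given with it (14 libraries) and without it (13 libraries).

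A dividing cell copies its DNA in S phase and separates the copies in mitosis. E2F factors switch on the genes of S phase at the passage out of G1, among them the MCM helicase subunits, the sliding clamp PCNA and the enzymes that make deoxynucleotides. The genes of G2 and mitosis, such as the B-type cyclins, the kinase CDK1 and the spindle motors, come on later through the DREAM and MMB-FOXM1 complexes, which bind a promoter element called the cell cycle genes homology region (CHR), often with CCAAT boxes bound by NF-Y nearby. Most cardiomyocytes of an adult mouse no longer divide, so these transcripts in heart are known mainly from endothelial cells, fibroblasts and leukocytes, and p53, which is activated by radiation damage, lowers many of them through DREAM while it raises a few genes of its own, Gtse1 and Psrc1 among them.

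Promoters of 6 members are shown because they carry these elements. Mki67, Top2a, Prc1, Gtse1 and Psrc1 are among the members described most closely, and Mcm6 is shown for its E2F matches. Sequences are from RefSeq on GRCm38.p6 and run 5′ to 3′ on the gene's strand, from 150 bases before the start of transcription to 30 bases after it. Capitals mark 3 elements, each searched on both strands. A CHR match is TTTGAA, or its variant with the letters TTCGAA. The box bound by NF-Y is CCAAT. An E2F match has the letters TTCCCGCC, and the forms TTTGGCGC and, as a further form, TTTCCCGC also count, of which the first and the last overlap where both occur. Neighbouring elements can share an end. The stretches lie at chr7:135716350-135716529 (minus strand) for Mki67, chr11:99024160-99024339 (minus) for Top2a, chr7:80294301-80294480 (plus) for Prc1, chr1:128359676-128359855 (minus) for Mcm6, chr15:85859557-85859736 (plus) for Gtse1 and chr3:108383688-108383867 (plus) for Psrc1.
Mki67: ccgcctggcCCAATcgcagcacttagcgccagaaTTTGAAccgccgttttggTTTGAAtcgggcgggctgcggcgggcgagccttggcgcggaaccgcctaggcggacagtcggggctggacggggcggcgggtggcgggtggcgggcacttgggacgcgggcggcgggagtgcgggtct
Top2a: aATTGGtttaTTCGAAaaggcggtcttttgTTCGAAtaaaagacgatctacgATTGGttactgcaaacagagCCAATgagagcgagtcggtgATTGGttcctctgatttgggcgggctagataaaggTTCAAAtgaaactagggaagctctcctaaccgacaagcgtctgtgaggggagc
Prc1: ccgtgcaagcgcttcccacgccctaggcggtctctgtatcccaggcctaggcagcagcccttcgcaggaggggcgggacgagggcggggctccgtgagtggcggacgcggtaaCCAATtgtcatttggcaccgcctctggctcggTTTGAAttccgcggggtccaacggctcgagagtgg
Mcm6: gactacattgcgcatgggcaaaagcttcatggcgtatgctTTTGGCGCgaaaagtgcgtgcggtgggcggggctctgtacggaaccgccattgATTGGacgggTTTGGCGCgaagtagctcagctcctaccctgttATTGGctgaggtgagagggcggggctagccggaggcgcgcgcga
Gtse1: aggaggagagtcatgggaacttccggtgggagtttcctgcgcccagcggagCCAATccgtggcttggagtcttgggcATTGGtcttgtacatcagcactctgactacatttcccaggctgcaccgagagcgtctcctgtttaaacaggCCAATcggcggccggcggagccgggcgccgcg
Psrc1: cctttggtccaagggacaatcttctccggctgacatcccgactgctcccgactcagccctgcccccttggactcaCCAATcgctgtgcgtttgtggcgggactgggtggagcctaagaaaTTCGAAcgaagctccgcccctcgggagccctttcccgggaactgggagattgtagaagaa

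Top2a holds 3 CHR matches and 4 CCAAT boxes in the stretch shown, Mki67 2 and 1, Prc1 1 and 1, and Psrc1 1 and 1. Mcm6 holds no CHR match, 2 CCAAT boxes and 2 E2F matches. Gtse1 holds 3 CCAAT boxes and no CHR match. RefSeq promoters of 300 bases (250 before to 50 after the start) were at hand for 40 of the 47 members, 44 promoters in all. Tpx2, Kif20a, Ccne2, Mcm4, Aurkb, Foxm1 and Ccna2 had no entry. A CHR match was found in 59.1% of the 44 member promoters and in 19.2% of 32851 mouse promoters of the same length. CCAAT boxes were found in 79.5% of the member promoters and in 37.4% of all promoters, and E2F matches in 11.4% and 3.21%. Both a CHR match and a CCAAT box were found in 24 of the 44, which is 54.5%, against 7.52% of all promoters. Counted by gene, these were 22 of 40. Overlapping promoters of Prc1 and of Psrc1 hold the same match each, so the member promoters have 32 distinct CHR matches, of which 22 began within 50 bases of a start. The p53 half-site consensus, searched after Gtse1 and Psrc1 had drawn attention, was found in 13.6% of the member promoters and in 8.36% of all, in 1 of the 2 Gtse1 promoters listed and in neither of the 2 Psrc1 promoters. Motif matches describe these letters only.

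**Figure D1:**
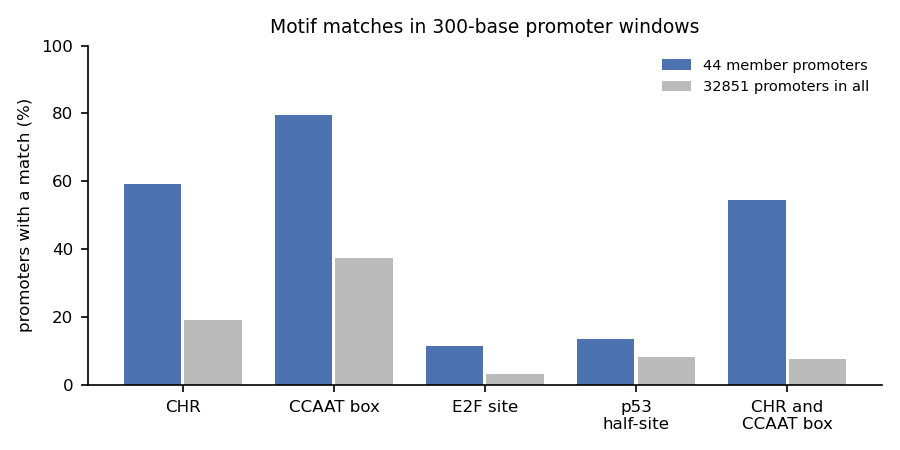
Share of 300-base promoter windows (in %) with at least 1 match to each motif, for the 44 promoters of members (blue bars) and for all 32851 mouse promoters (grey bars). CHR matches with a CCAAT box are in 54.5% of member promoters and 7.52% of all.

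The libraries held 13336746 to 16837265 counts. A gene at 0 counts in a library could, by counting alone, lie at up to 3 counts, which is 0.178 to 0.225 CPM (a count scaled to its library's total). In 4 libraries counts of 0 were more frequent, so that limit is too low there. Of the genes at a mean of 2 to 5 CPM in the other libraries, 39.7% had 0 counts in Control_1d replicate 1. The share was 30.2% for IRR_6w replicate 3, 14.8% for IRR_6w replicate 4 and 8.15% for Control_6w replicate 1, against 0.108 to 4.45% in the other 10. Members listed at 0 counts numbered 18 in Control_1d replicate 1, 5 in Control_6w replicate 1 and 7 in IRR_6w replicate 3, with 0 in IRR_6w replicate 4. Cardiomyocyte markers (6 genes) summed to 9031 to 33160 CPM in the 13 libraries and to 4623 CPM in Control_6w replicate 3.

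In Control_6w replicate 3 the 47 members summed to 4896 CPM, against 135 to 684 CPM in the other 13 libraries. Its 11 thymocyte markers (Rag1, Rag2, Dntt and Ptcra among them) summed to 5227 CPM. They summed to 56.0 CPM in Control_6w replicate 4 and to 50.6 CPM in IRR_6w replicate 1, where Rag1, which cuts antigen receptor genes in lymphocyte precursors, was at 18.4 and 10.4 CPM, and to 2.29 to 30.5 CPM in the other 11 libraries. Mki67, the proliferation marker Ki-67, stood at 801 CPM there, 15.7 times the next library, and Top2a, the topoisomerase that untangles sister chromatids, at 546 CPM, 8.28 times the next. Control_6w replicate 3 was the highest of the 14 libraries for 44 of the 47 members, with a median ratio to the next library of 5.96. The exceptions were Psrc1, Gtse1 and E2f1, for which a library of IRR_6w was higher. The share of all genes that were highest in Control_6w replicate 3 was not counted. Male germ cell markers (10 genes) also stood apart, at 45.1 to 67.8 CPM in Control_6w replicates 1 to 3, 1.29 CPM in replicate 4 and 0 to 6.76 CPM in the other groups. What these cells gave to the members' levels was not tested.

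**Figure D2:**
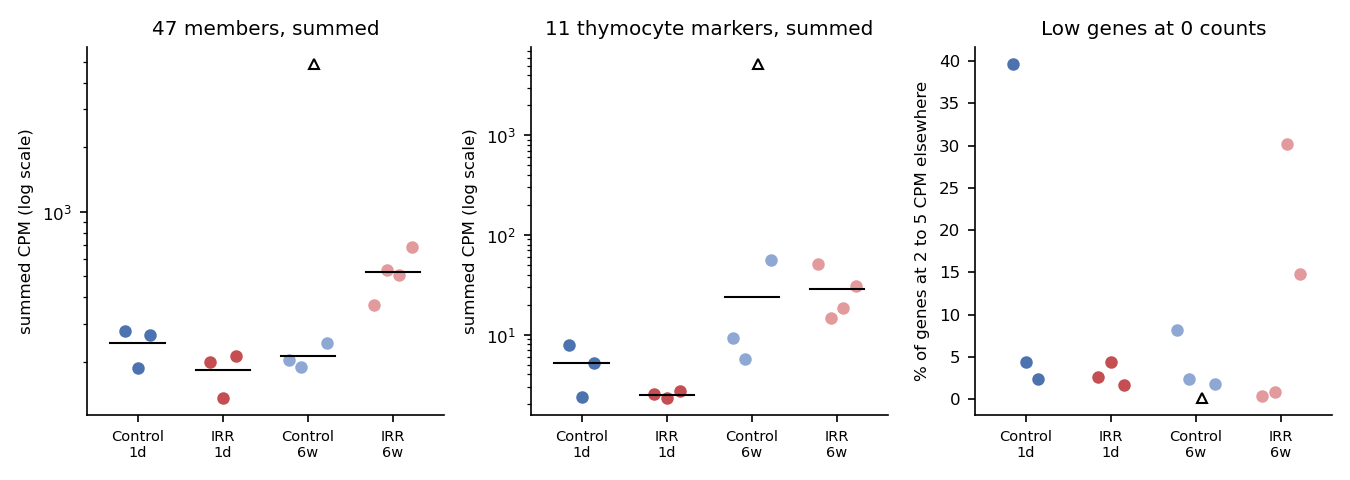
Each point is 1 library, by group: summed CPM of the 47 members (left, log axis), summed CPM of 11 thymocyte markers (centre, log axis) and percent of genes at a mean of 2 to 5 CPM elsewhere that are at 0 counts (right). The open triangle is Control_6w replicate 3, at 4896 CPM for the members and 5227 CPM for the markers, and lines are group means without it.

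Without a dose the members were low in heart. Per length, as FPKM, that is CPM divided by the deposited gene length in kilobases, Pcna led Control_1d at 14.9 ± 1.55 FPKM (SD, n = 3). Mcm4 followed at 4.26 ± 2.55 FPKM and Mcm6 at 3.96 ± 2.34 FPKM, which lie within each other's spread. Mki67 stood at 1.16 ± 0.507 FPKM, Top2a at 0.934 ± 0.095, Gtse1 at 0.155 ± 0.269 and Ccnb1 at 0.130 ± 0.145 FPKM. Mybl2, the B-Myb factor of the MMB complex, was the lowest at 0.0484 ± 0.0837 FPKM. The 7 genes of the helicase and clamp ran from 1.39 to 14.9 FPKM, and the 9 cyclins and kinases of G2 and mitosis from 0.130 to 0.940 FPKM. Nusap1 had the highest mean of the spindle genes, at 2.41 ± 2.02 FPKM, with Control_1d replicate 1 at 19.0 CPM and replicates 2 and 3 at 3.22 and 7.12 CPM.

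At 1 day 40 of the 47 members had a negative log2 fold change for IRR_1d against Control_1d. None of the members passed the adjusted p in the 14 libraries, where 0 of all genes were called lower. Mki67 stood at 10.03, 7.60 and 17.4 CPM in Control_1d and at 1.35, 1.04 and 1.79 CPM in IRR_1d. Top2a stood at 7.96, 7.89 and 9.41 CPM in Control_1d and at 0.800, 1.53 and 1.03 CPM in IRR_1d. Neither pair of groups overlapped. In edgeR's quasi-likelihood test over all 14 libraries Mki67 differed by a log2 fold change of -3.15 ± 1.40 (SE) and Top2a by -2.97 ± 1.40, and neither passed (adjusted p = 1.00 for both). In a bulk library fewer dividing cells and less RNA per dividing cell cannot be told apart.

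At 1 day 0 of the 47 members were called in the 14 libraries. The limits were a fold over 2 or under 0.5, with a Benjamini-Hochberg adjusted p under 0.05. Of 16034 genes 0.0249% were called higher and 0 lower. As no gene was called lower, this fit cannot set the members apart from other genes in that direction. At an unadjusted p under 0.05 with the same fold limits, 4 members were lower (Bub1, Mki67, Ndc80 and Prc1), against 0.674% of all genes, and 1 was higher (Gtse1), against 1.56%. The count of 4 ran from 0 to 17 with 1 library left out, and was 0 with limma and 11 with no filter on low counts. Groups did not overlap for 14 members that were lower in IRR_1d, against 1.97% of all genes, and for 3 that were higher (Gtse1, Psrc1 and Tyms), against 7.28%. The 14 were Mki67, Top2a, Ndc80, Cdca8, Kif11, Kif20a, Kif23, Tpx2, Nusap1, Prc1, Hmmr, Racgap1, Mcm5 and Rrm2. The median log2 fold change was -1.44 over the members and 0.06 over all genes.

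Without Control_6w replicate 3, a library of the other time point, the standard errors were smaller and more members passed at 1 day. Mki67 fell, by 3.15 ± 0.462 (SE) on the log2 scale (edgeR, adjusted p = 0.028), the only gene of 15589 called lower (0.00641%), while 0.0641% were called higher. That call was lost when any of 9 further libraries was left out, namely each of the 6 libraries of 1 day, Control_6w replicates 1 and 2 and IRR_6w replicate 4 (edgeR, adjusted p = 0.050 to 0.164, at log2 fold changes of -2.71 to -3.36). It was also lost with limma (adjusted p = 0.791), with the 6 libraries of 1 day alone (0.273), with the replicate number as a block (0.148) and with the 9 libraries left once those with many genes at 0 were also dropped, a set chosen after seeing the data (0.0807), at log2 fold changes of -3.04 to -3.38. Top2a stood at -2.97 ± 0.529 (adjusted p = 0.0823). It passed with DESeq2 (-2.98, adjusted p = 2.69e-05), with no filter on low counts (-2.96, adjusted p = 0.00212) and when IRR_6w replicate 1 was also left out (-2.97, adjusted p = 0.0447). DESeq2 called 3 members lower (Mki67, Top2a and Nusap1), against 0.122% of all genes, and 1 higher (Gtse1), against 0.294%. At an unadjusted p, 17 members were lower, against 0.994% of all genes, and Gtse1 alone was higher, against 1.67%. That count of 17 was 9, 10, 11 and 11 without IRR_1d replicate 1, IRR_1d replicate 2, Control_1d replicate 2 and Control_1d replicate 3, and 8 in a fit of the 6 libraries of 1 day.

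By role, all 9 cyclins and kinases of G2 and mitosis had a negative log2 fold change at 1 day in the 13 libraries. Their median was -3.11, against 0.06 over all genes, and 3 of them passed an unadjusted p, against 0.994% of all genes lower. The sign for Aurka depended on the measure, as its mean was 0.690 CPM in Control_1d and 0.706 CPM in IRR_1d. Bub1, a kinase of the spindle checkpoint, had 43 counts in Control_1d and 1 in IRR_1d, a ratio of 0.0222 (95% exact interval 0.000548 to 0.130, for counting error only). Ccnb1, cyclin B1, had 24 and 3 counts, a ratio of 0.119 (0.0229 to 0.392). Control_1d replicate 1 was at 0 counts for 8 of these 9 genes, so the groups of these 8 overlap or touch through that library. Per library Bub1 stood at 0, 1.97 and 1.07 CPM in Control_1d and at 0, 0 and 0.0689 CPM in IRR_1d, and Ccnb1 at 0, 0.439 and 1.21 CPM in Control_1d and at 0, 0 and 0.207 CPM in IRR_1d. Ccnb2, cyclin B2, stood at 0, 1.90 and 2.42 CPM in Control_1d and at 0.0615, 0 and 0.482 CPM in IRR_1d, and Aurka, a kinase of the spindle poles, at 0.0692, 0.658 and 1.34 CPM in Control_1d and at 0.738, 0.347 and 1.03 CPM in IRR_1d. Cdk1, the kinase that drives entry into mitosis, stood at 0, 2.19 and 3.49 CPM in Control_1d and at 0, 0.486 and 0.138 CPM in IRR_1d (log2 fold change -3.27 ± 1.84). Foxm1, the factor that switches on genes of G2, stood at 0, 3.73 and 3.02 CPM and at 0.431, 0.278 and 0.482 CPM (-2.74 ± 1.19). For both, the other control libraries lay above all 3 irradiated ones.

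Of the 10 genes of the spindle, 8 had a negative log2 fold change. Of these, 6 passed an unadjusted p, against 0.994% of all genes lower, and 0 an adjusted p, against 0.00641%. Prc1, which bundles microtubules between the separating chromosomes, stood at 3.39, 3.51 and 4.50 CPM in Control_1d and at 0.923, 0.695 and 0.827 CPM in IRR_1d (log2 fold change -2.31 ± 0.692). Kif23, a motor of the same midzone, stood at 9.48, 2.19 and 3.63 CPM and at 0.738, 0.903 and 0.895 CPM (-2.52 ± 0.714). Nusap1, which joins microtubules to chromatin, stood at 19.0, 3.22 and 7.12 CPM and at 1.35, 1.53 and 2.07 CPM (-2.50 ± 0.628). Kif11, the motor that pushes the spindle poles apart, stood at 2.14, 3.65 and 4.50 CPM and at 0.185, 1.18 and 1.24 CPM (-2.10 ± 0.754). For all 4 the irradiated libraries lay below every control. Hmmr, a protein of the spindle poles, stood at 1.87, 1.68 and 1.48 CPM in Control_1d and at 0.123, 0.486 and 0.482 CPM in IRR_1d and showed the same order. Kif4, a chromosome motor, was near the limit of counting, at 0, 0.292 and 2.28 CPM and at 0.554, 0.348 and 0 CPM. Outside the spindle group, Ndc80, which holds microtubules at the kinetochore, stood at 8.58, 1.10 and 1.07 CPM in Control_1d. In IRR_1d it stood at 0.123, 0.556 and 0 CPM (-3.71 ± 1.22), without overlap. For Ndc80, Kif23 and Nusap1 the highest control was Control_1d replicate 1, which enlarges their fold changes. In that library 39.7% of the genes at 2 to 5 CPM elsewhere had 0 counts. Racgap1, which works with Kif23, stood at 3.18, 2.63 and 3.49 CPM in Control_1d and at 0.799, 2.02 and 1.17 CPM in IRR_1d (-1.25 ± 0.604).

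Of the genes of replication, all 7 of the helicase and clamp had negative values, with a median of -0.62. Mcm5 alone passed an unadjusted p with the fold limit (-1.20 ± 0.540), against 0.994% of all genes lower. Pcna stood at 40.0, 33.3 and 33.8 CPM in Control_1d and at 33.9, 30.4 and 36.8 CPM in IRR_1d, so the groups overlapped. Among the genes of deoxynucleotide synthesis, Rrm2, the regulated subunit of ribonucleotide reductase, was at -1.45 ± 0.666, while Rrm1 (0.13 ± 0.291), Tk1 (0.25 ± 1.05) and Tyms (1.01 ± 0.598) were not lower. Rrm2 stood at 3.67, 2.19 and 3.76 CPM in Control_1d and at 1.60, 1.11 and 0.895 CPM in IRR_1d, without overlap. Tyms, thymidylate synthase, stood at 1.73, 0.731 and 2.35 CPM in Control_1d and at 2.83, 2.85 and 4.34 CPM in IRR_1d, without overlap in the other direction. Mcm2 stood at 14.2, 5.48 and 9.47 CPM and at 6.03, 5.07 and 8.13 CPM (-0.62 ± 0.415), and Ccne1, an E cyclin, at 4.50, 0.731 and 0.605 CPM and at 0.677, 1.32 and 1.52 CPM (-0.62 ± 1.39), so both overlapped. Mcm4 stood at 25.7, 8.33 and 11.8 CPM in Control_1d and at 11.9, 7.85 and 14.1 CPM in IRR_1d, Mcm7 at 8.30, 7.16 and 13.4 CPM in Control_1d and at 9.35, 5.77 and 10.1 CPM in IRR_1d and Ccne2, the other E cyclin, at 4.29, 5.41 and 2.62 CPM in Control_1d and at 2.46, 3.27 and 3.72 CPM in IRR_1d, and these overlapped too. E2f1, the factor that drives S phase genes, stood at 5.53, 1.24 and 3.36 CPM in Control_1d and at 1.23, 0.764 and 2.13 CPM in IRR_1d (-1.30 ± 0.691). Cenpf, a kinetochore protein, ran from 6.43 to 18.1 CPM and from 7.44 to 51.8 CPM, the highest being IRR_1d replicate 1.

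**Figure D3:**
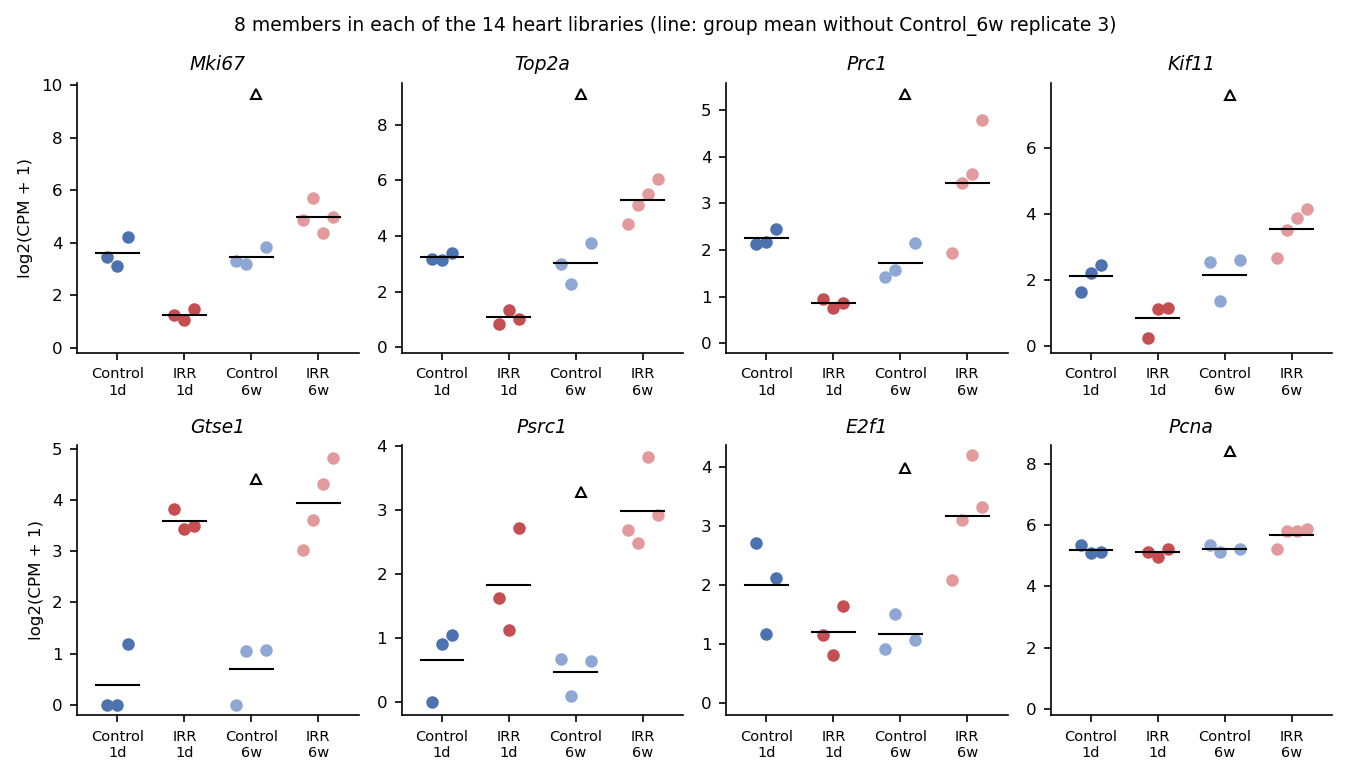
Levels of 8 members as log2(CPM + 1) in each of the 14 libraries, by group, with group means as lines. The open triangle is Control_6w replicate 3, left out of the mean, and for Mki67, Top2a and Prc1 the 3 libraries of IRR_1d lie below all others while for Gtse1 they lie above both sets of controls but that triangle.

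At 6 weeks the direction depended on 1 library. With all 14 libraries, 42 of 47 members had a negative log2 fold change for IRR_6w against Control_6w (median -1.54, against -0.09 over all genes). None was called, where 0.237% of all genes were called higher and 0.0187% lower. At an unadjusted p 4 members were lower (Mcm7, Mki67, Ccne2 and Pcna), against 1.75% of all genes, and 0 were higher, against 3.69%. The count of 4 ran from 0 to 12 with 1 library left out. It was 0 with limma or the replicate block and 12 with no filter on low counts. The 4 libraries of Control_6w hold Mki67 at 8.76, 8.09, 801 and 13.1 CPM, and those of IRR_6w at 28.1, 50.9, 19.7 and 30.7 CPM. Mcm7, a helicase subunit, stood at 10.7, 9.93, 94.9 and 10.2 CPM and at 12.1, 11.9, 12.8 and 9.44 CPM (-1.53 ± 0.596). For Mki67 only replicate 3 of the controls lay above the irradiated hearts, and the other 3 lay below all of them.

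Without Control_6w replicate 3, 43 of 46 members had a positive value at 6 weeks (median 1.44, against 0.01 over all genes). Mybl2, at most 1.73 CPM in those libraries, was left out by the low count filter. None was called, where 0.192% of all genes were called higher and 0.0385% lower. At an unadjusted p 12 members were higher (Top2a, E2f1, Mki67, Gtse1, Psrc1, Racgap1, Prc1, Hmmr, Ube2c, Rrm2, Nusap1 and Tyms), against 5.23% of all genes, and 0 were lower, against 1.23%. The groups did not overlap for 26 of the 46, with every irradiated heart above the 3 controls, against 14.5% of all genes. Leaving out Control_6w replicate 4 or IRR_6w replicate 1 as well, which hold some thymocyte transcripts, gave 12 and 14 members higher at an unadjusted p. DESeq2 called 8 of the 46 higher, against 2.78% of all genes by that tool.

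Top2a had the smallest p. It stood at 7.07, 3.83 and 12.6 CPM in the 3 controls and at 20.8, 33.8, 45.2 and 65.9 CPM in IRR_6w, a log2 fold change of 2.06 ± 0.470 (edgeR, adjusted p = 0.085). It passed when IRR_6w replicate 1 was also left out (2.29, adjusted p = 0.0353), with library totals in place of TMM (2.40, adjusted p = 0.037), with no filter on low counts (2.03, adjusted p = 0.0129) and with DESeq2 (2.09, adjusted p = 0.00104). Mki67 differed by 1.40 ± 0.402 (adjusted p = 0.181). E2f1 stood at 0.883, 1.85 and 1.11 CPM and at 3.25, 7.54, 17.3 and 8.97 CPM, a difference of 2.53 ± 0.691 (adjusted p = 0.153). Racgap1 stood at 3.02, 1.63 and 2.53 CPM and at 4.87, 8.95, 11.5 and 19.7 CPM (1.90 ± 0.582, adjusted p = 0.209). DESeq2 also passed E2f1 (adjusted p = 0.00522), Mki67 (adjusted p = 0.0307) and Racgap1 (adjusted p = 0.018). Each of the 4 irradiated libraries lay above each of the 3 controls for these genes. With all 14 libraries the values were -1.82 ± 1.09 for Top2a, -2.68 ± 1.14 for Mki67, 0.90 ± 0.806 for E2f1 and -1.10 ± 0.957 for Racgap1, so 3 of the 4 turned.

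By role without that library, all 9 cyclins and kinases (median 1.61), all 7 genes of chromosome and kinetochore (1.42) and all 10 spindle genes (1.40) had positive values. With it the medians of these groups were -1.91, -1.97 and -1.51, and 0 of 9, 0 of 7 and 3 of 10 were positive. Cdk1 stood at 1.55, 0.993 and 2.40 CPM in the 3 controls and at 2.16, 7.86, 0 and 25.0 CPM in IRR_6w, which overlapped. Ccnb1 stood at 0.736, 0.426 and 2.03 CPM and at 1.28, 6.26, 9.52 and 9.27 CPM, and Foxm1 at 1.69, 1.42 and 1.23 CPM and at 2.37, 7.22, 5.77 and 12.3 CPM. The groups of Foxm1 did not overlap, and those of Ccnb1 did through IRR_6w replicate 1. Rrm2 stood at 0.589, 2.48 and 3.39 CPM and at 6.09, 8.82, 15.5 and 7.48 CPM (1.80 ± 0.637). The helicase and clamp had a median of 0.39, with 6 of 7 positive and none at an unadjusted p, against 5.23% of all genes higher. With all 14 libraries their median was -0.92, with 7 of 7 negative. Pcna stood at 40.3, 34.2 and 36.0 CPM in the controls and at 36.6, 55.2, 55.0 and 58.3 CPM in IRR_6w, where replicate 1 lay among the controls. Mcm2, another helicase subunit, stood at 8.17, 7.59 and 8.62 CPM and at 12.6, 10.6, 5.62 and 20.02 CPM, with IRR_6w replicate 3 below every control (0.26 ± 0.388). Mcm7 (-0.14 ± 0.316), Ccne2 (-0.13 ± 0.488), one of the E cyclins of S phase entry, and Tk1 (-0.58 ± 0.969) were the 3 that stayed negative in edgeR with TMM. By mean CPM, Mcm7 (11.55 against 10.28) and Ccne2 (5.10 against 4.54) were higher in IRR_6w than in the 3 controls. The sign of these 2 thus depended on the measure, while Tk1 was lower by both (3.29 against 4.02 CPM). IRR_6w replicate 3 was at 0 counts for Ccna2, Cdk1, Bub1b, Birc5, Tpx2, Ccne1 and Mybl2, while it was the highest of the 13 libraries for 9 members (Ccnb1, Ccnb2, Cdca3, Hmmr, Psrc1, Mcm3, Rrm2, Tyms and E2f1).

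Further members at 6 weeks were read per library, again without Control_6w replicate 3 and in the order controls, then IRR_6w. Bub1 stood at 1.69, 1.35 and 1.42 CPM in the 3 controls and at 1.83, 5.11, 5.70 and 10.2 CPM in IRR_6w. Ndc80 stood at 1.25, 0.639 and 1.23 CPM in the 3 controls and at 1.69, 3.13, 4.27 and 7.84 CPM in IRR_6w. Ccnb2 stood at 2.21, 0.922 and 2.77 CPM in the 3 controls and at 3.79, 5.11, 7.87 and 3.86 CPM in IRR_6w. None of these 3 overlapped between the groups. Prc1 stood at 1.69, 1.99 and 3.45 CPM in the 3 controls and at 2.84, 9.78, 11.4 and 26.5 CPM in IRR_6w, where IRR_6w replicate 1 lay below Control_6w replicate 4. Kif11 stood at 4.86, 1.56 and 5.05 CPM in the 3 controls and at 5.34, 10.5, 13.7 and 16.9 CPM in IRR_6w. Kif23, which works at the same midzone as Prc1, stood at 1.40, 2.77 and 2.09 CPM in the 3 controls and at 4.60, 10.2, 3.30 and 3.27 CPM in IRR_6w. Both motors were higher in CPM in every irradiated heart than in these controls, Kif11 by a narrow gap. CPM uses library totals, which raised log2 fold changes at 6 weeks over TMM by a median of 0.319 in the 13 libraries. Narrow gaps, such as those of Bub1 and Kif11, may thus depend on the scale. Nusap1 stood at 5.23, 1.42 and 4.37 CPM in the 3 controls and at 20.3, 10.3, 6.97 and 15.3 CPM in IRR_6w. Hmmr stood at 0.957, 0.284 and 0.677 CPM in the 3 controls and at 1.76, 4.28, 9.67 and 3.15 CPM in IRR_6w. Tyms stood at 1.40, 2.55 and 2.83 CPM in the 3 controls and at 6.63, 6.65, 13.8 and 5.29 CPM in IRR_6w. The groups of these 3 lay apart as well. Mcm4, a helicase subunit, stood at 9.13, 8.73 and 13.1 CPM in the 3 controls and at 18.1, 16.0, 13.7 and 20.1 CPM in IRR_6w, with a narrow gap between the groups. Aurka stood at 1.84, 1.06 and 2.59 CPM in the 3 controls and at 1.96, 4.67, 2.92 and 0.713 CPM in IRR_6w. Kif4 stood at 0, 1.21 and 2.22 CPM in the 3 controls and at 2.84, 4.22, 3.22 and 1.43 CPM in IRR_6w. The groups of Aurka and Kif4 overlapped. Cenpf stood at 13.2, 14.4 and 12.0 CPM in the 3 controls and at 4.60, 29.3, 13.6 and 17.6 CPM in IRR_6w. The E cyclins Ccne1 and Ccne2 stood at 0, 0.497 and 0.308 CPM in the 3 controls and at 0.879, 1.92, 0 and 2.79 CPM in IRR_6w, and at 6.62, 3.48 and 3.51 CPM in the 3 controls and at 4.26, 5.94, 4.80 and 5.41 CPM in IRR_6w. Cenpf and the E cyclins overlapped. In Control_6w replicate 3 these 13 members ran from 32.2 to 193 CPM, and the E cyclins stood at 15.1 and 42.3 CPM.

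**Figure D4:**
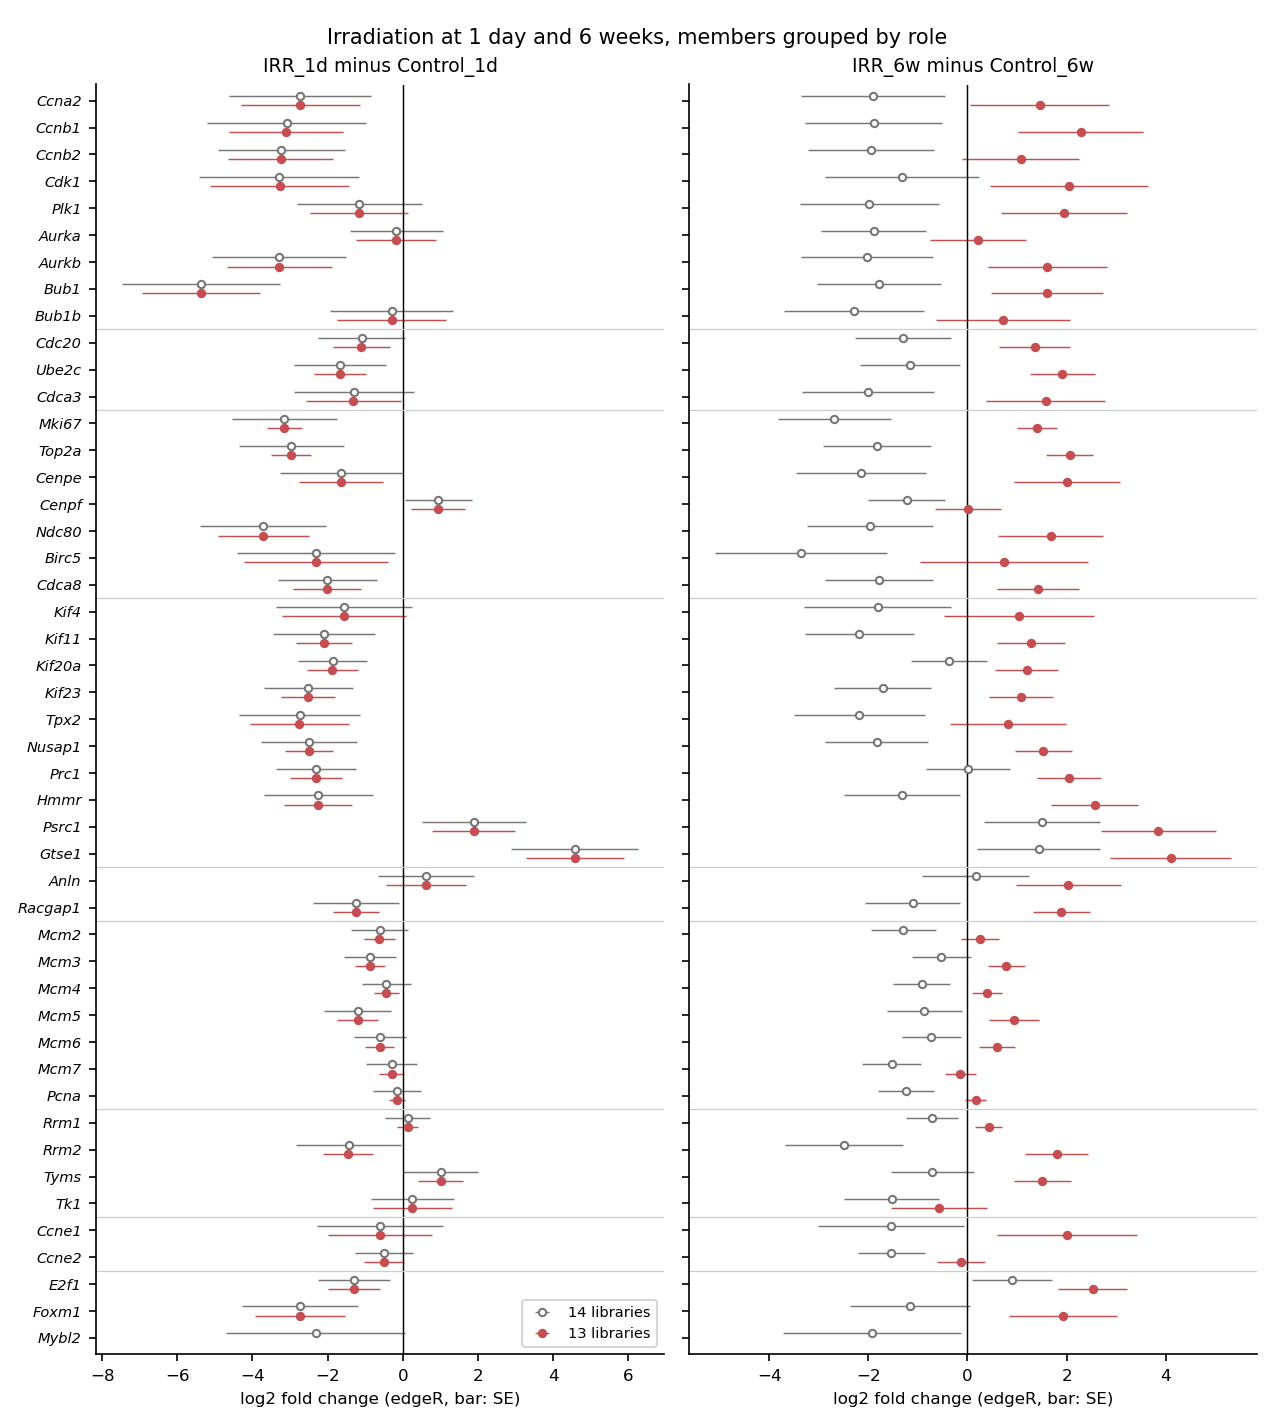
Log2 fold change (edgeR, bars are SE) of each member at 1 day (left) and 6 weeks (right), with all 14 libraries (open grey) and without Control_6w replicate 3 (red), grouped by role from cyclins at the top to transcription factors at the bottom. At 6 weeks 42 of 47 are negative with that library and 43 of 46 positive without it.

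Markers of other cells moved with the groups at 6 weeks. Macrophage and monocyte markers (8 genes) summed to 1250 to 1739 CPM in IRR_6w, to 540 to 575 CPM in Control_6w replicates 1, 2 and 4 and to 264 CPM in replicate 3, and the groups did not overlap. Fibroblast markers (6 genes) summed to 2466 to 3887 CPM in IRR_6w and to 1071 to 2107 CPM in Control_6w. Thymocyte markers without Control_6w replicate 3 overlapped, at 14.8 to 50.6 CPM in IRR_6w and at 5.75 to 56.0 CPM in Control_6w. Endothelial markers (5 genes) ran from 1115 to 1870 CPM and from 578 to 1448 CPM, which overlapped. IRR_6w replicate 1 also held lung epithelial markers at 532 CPM, atrial markers at 3318 CPM and erythroid markers at 74050 CPM, the highest of all libraries. It was also the highest for brown fat markers, at 1260 CPM, and for neutrophil and marrow granulocyte markers, at 115.6 CPM, where the next library stood at 37.7 CPM. Brown fat markers stood at 849 CPM in Control_6w replicate 3, at 420 CPM in IRR_1d replicate 3 and at 81.0 to 136 CPM in the other 11 libraries. IRR_1d replicate 3 also held atrial markers at 1217 CPM and fibroblast markers at 5338 CPM, the latter the highest of all libraries. At 1 day macrophage markers overlapped (491 to 669 CPM in IRR_1d, 381 to 813 CPM in Control_1d), and endothelial markers were at 851 to 909 CPM in IRR_1d and 892 to 1435 CPM in Control_1d. B cell markers (6 genes) did not overlap at 1 day, at 2.46 to 3.61 CPM in IRR_1d and 4.82 to 41.3 CPM in Control_1d. At 6 weeks they were at 13.04 to 71.8 CPM in IRR_6w and at 5.11 to 10.7 CPM in Control_6w replicates 1, 2 and 4, with replicate 3 at 26.9 CPM. The share of mitochondrial counts was 10.4 to 22.2% in IRR_6w and 22.3 to 30.3% in Control_6w, and the share of the 10 highest genes 12.6 to 23.5% and 24.3 to 31.7%, neither with overlap. The part of these cells and shares in the members' differences was not tested.

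Between the time points, 45 of 47 members had a positive log2 fold change for IRR_6w against IRR_1d in the 14 libraries (44 of 46 in the 13). In the 14 libraries 19 of 47 passed an unadjusted p, against 3.06% of all genes. None passed the adjusted p in edgeR, where 0.0312% of all genes were called higher. DESeq2, which gave an adjusted p for 26 of the members, called 2 of them higher, against 0.849% of all genes. Without Control_6w replicate 3, 26 of 46 passed an unadjusted p, against 3.79%. Mki67 and Top2a then rose, by log2 fold changes of 4.25 ± 0.471 and 4.84 ± 0.554 (edgeR, adjusted p = 0.00134 and 0.00166), against 0.192% of all genes called higher. DESeq2 called 23 higher, against 2.04% of all genes, while limma called 0 and edgeR with 9 libraries 1. Between the controls, 13 members were higher at 6 weeks at an unadjusted p with all 14 libraries, against 2.72% of all genes, and without Control_6w replicate 3 there were 0, against 0.821%. Nusap1 was then lower at an unadjusted p (-1.35 ± 0.6004), against 1.08% of all genes. Time and the batch of animals or libraries cannot be told apart here.

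The difference between the irradiation effects at 6 weeks and 1 day was tested as an interaction. In the 14 libraries none of the 47 members passed in edgeR, adjusted or not, and 23 had positive and 24 negative values. Of all 16034 genes, 0 passed the adjusted p in either direction. At an unadjusted p 1.98% of all genes were higher and 0.879% lower. Without Control_6w replicate 3, Mki67 (4.55 ± 0.612) and Top2a (5.03 ± 0.708) passed (edgeR, adjusted p = 0.0337 for both), against 0.0192% of all genes. At an unadjusted p 25 of 46 members had a more positive effect at 6 weeks, against 3.29% of all genes, and 43 of 46 had a positive value (median 3.09, against -0.05 over all genes). With 1 more library left out the number called ranged from 0 to 3, and it was 0 without any of Control_1d replicates 1 to 3, IRR_1d replicates 1 to 3, Control_6w replicates 1, 2 and 4 and IRR_6w replicates 2 and 4. The unadjusted count then ran from 19 to 28. DESeq2 called 13, against 0.673% of all genes, and limma, the replicate block and 9 libraries gave 0.

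Gtse1 and Psrc1 were the 2 spindle genes with a positive log2 fold change at 1 day. Gtse1, which binds microtubules and takes p53 out of the nucleus in G2, stood at 0, 0 and 1.28 CPM in Control_1d and at 13.2, 9.80 and 10.3 CPM in IRR_1d. At 6 weeks it stood at 0, 1.06, 20.5 and 1.11 CPM in Control_6w and at 7.10, 11.2, 18.8 and 27.5 CPM in IRR_6w. Every irradiated library thus lay above every control but Control_6w replicate 3. Its log2 fold change at 1 day was 4.58 ± 1.69 in the 14 libraries and 4.58 ± 1.30 in the 13 (edgeR, adjusted p = 1.00 and 0.744), and at 6 weeks it was 1.43 ± 1.25 in the 14 and 4.10 ± 1.22 in the 13 (adjusted p = 0.792 and 0.201). DESeq2 passed it in the 13 libraries at 1 day (adjusted p = 0.0160) and at 6 weeks (adjusted p = 0.00554). With no filter on low counts edgeR passed it there too, at 1 day (4.575, adjusted p = 0.0452) and at 6 weeks (4.055, adjusted p = 0.0222).

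Psrc1, a partner of the spindle that p53 also drives, stood at 0, 0.877 and 1.08 CPM in Control_1d and at 2.09, 1.18 and 5.58 CPM in IRR_1d. At 6 weeks it stood at 0.589, 0.0710, 8.75 and 0.554 CPM in Control_6w and at 5.41, 4.60, 13.1 and 6.59 CPM in IRR_6w. Its log2 fold change in the 13 libraries was 1.89 ± 1.10 at 1 day and 3.85 ± 1.16 at 6 weeks (edgeR, adjusted p = 0.205 at 6 weeks, where DESeq2 passed it at 3.90, adjusted p = 0.00361), and in the 14 it was 1.89 ± 1.39 and 1.503 ± 1.16. The change in effect between the times in the 13 libraries was -0.48 ± 1.57 for Gtse1 and 1.96 ± 1.503 for Psrc1. The other 8 spindle genes ran from 2.60 to 4.81, and no test compared them with these 2. In the 14 libraries the change was -3.14 ± 1.98 for Gtse1 and -0.39 ± 1.74 for Psrc1.

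Other genes of the same processes were read from a list of 118, of which 114 were tested in the 14 libraries and 113 in the 13. In the 14 libraries 5 were lower and 0 higher at an unadjusted p at 1 day (median -0.35), against 0.674% and 1.56% of all genes. At 6 weeks 7 were lower and 0 higher (median -0.97), against 1.75% and 3.69%, and for the change in effect 1 was lower and 0 higher, against 0.879% and 1.98%. Without Control_6w replicate 3, 6 were lower and 1 higher (Ckap2) at 1 day (median -0.34), against 0.994% and 1.67% of all genes. At 6 weeks the direction turned, with 10 higher and 1 lower (median 0.46), against 5.23% and 1.23%. For the change in effect 18 were then higher, against 3.29%. In IRR_6w against IRR_1d 11 were higher in the 14 libraries and 20 in the 13, against 3.06% and 3.79%. The adjusted p was passed by 1 gene, Pbk, in that comparison of the 13 libraries. Pbk, a mitotic kinase, was at 0 counts in all 3 libraries of IRR_1d, at 0.512 to 3.04 CPM in Control_1d and at 1.69 to 6.45 CPM in IRR_6w. Against 3 counts over the IRR_1d group (0.0664 CPM) it was at least 24.5-fold lower than the mean of Control_1d (1.63 CPM). Against the mean of IRR_6w (4.50 CPM) it was at least 67.8-fold lower. Both bounds cover counting error only, not the spread between libraries.

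The kinetochore genes Nuf2 and Knl1, which hold microtubules together with Ndc80, ran at 1 day from 1.28 to 3.67 CPM and from 0 to 1.14 CPM in Control_1d, and from 0 to 0.138 CPM and from 0 to 0.0689 CPM in IRR_1d. The groups of Nuf2 did not overlap, and those of Knl1 did through Control_1d replicate 1. Of 17 genes of the spindle checkpoint and kinetochore, 6 had positive and 11 negative values at 1 day without Control_6w replicate 3 (median -0.54). At an unadjusted p 2 of the 17 were lower, against 0.994% of all genes. Wee1, the kinase that holds CDK1 inactive, ran from 11.2 to 12.9 CPM in Control_1d and from 21.3 to 26.6 CPM in IRR_1d (log2 fold change 0.91 ± 0.313, below the fold limit). Of 25 genes of DNA polymerases and the replication fork, 13 had positive and 12 negative values at 1 day without Control_6w replicate 3 (median 0.00), and 11 and 14 at 6 weeks (median -0.07). With all 14 libraries all 25 were negative at 6 weeks (median -0.9996). Of 23 other mitotic kinases, kinesins and phosphatases, 18 were negative at 1 day without that library (median -0.95) and all 23 positive at 6 weeks (median 1.11). With it 23 of 24 were negative at 6 weeks (median -1.73).

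Positions of 46 of the 47 members on mm10 were the same in GENCODE M21, and Kif20a differed. Mki67 lies at chr7:135689784-135716361 and Top2a at chr11:98992943-99024189, both on the minus strand, and Gtse1 at chr15:85859745-85876573 and Psrc1 at chr3:108383839-108388231, both on the plus strand. Exonic bases are shared with another gene for 14 members, above 20% of the gene for Ube2c (22.8%, with Tnnc2) and Kif20a (29.3%, with Cdc23), and the values of these 2 are uncertain where reads of the neighbour were counted. Pseudogenes of Pcna, Ccnb1, Ccnb2 and Kif4 have rows of their own, so reads of these genes may be split.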

How the data were processed

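RNA of 14 hearts, 1 library per mouse, was sequenced as paired-end reads. Per the labels and the study's methods, the authors checked reads with FastQC 0.11.8, trimmed them with Trim Galore 0.6.1, aligned them to mm10 with STAR 2.5.0a and counted them with HTSeq. Strand, counting mode and annotation release are not given in the sources used here. The authors deposited 1 table of whole-number counts per gene, not normalized, with each gene's length in bases.

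Counts were fitted with edgeR 4.0.16 in R 4.3.3 (filterByExpr, TMM, 1 model of the 4 groups, quasi-likelihood test). Genes were called where the fold change exceeded 2 or lay below 0.5 and where p, adjusted by Benjamini and Hochberg's method for every gene tested, was under 0.05. SE is the absolute log2 fold change divided by the square root of the F statistic. The members and all lists were chosen with earlier results of these data known. Values per library are given for 13 anchor members and for the 6 members with the smallest p in a comparison, and a few other pathway genes are given by their range. Alternatives were DESeq2 1.42.0, limma 3.58.1, other scalings, no filter, a replicate block and left-out libraries, and the fitting script was tested on simulated data.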

Additional observations from a re-analysis of the deposited data

Results flagged for a closer look

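In Control_6w, replicate 3 lay far from the other 3 libraries for every one of the 47 members. The gap over the group's range was 0.896 for the median member level, beyond Dixon's 95% critical value for 4 samples. This library was set apart beforehand for its dividing-cell transcripts, so the gaps describe it and are no independent test. The share of all genes beyond that value was not counted. Among the members named above the gap was 0.982 for Ccnb1, 0.974 for Ccnb2, 0.982 for Cdk1, 0.951 for Aurka, 0.995 for Bub1, 0.994 for Mki67, 0.984 for Top2a, 0.974 for Cenpf, 0.99 for Ndc80 and 0.94 for Kif4. It was 0.982 for Kif11, 0.978 for Kif23, 0.978 for Nusap1, 0.954 for Prc1, 0.985 for Hmmr, 0.94 for Psrc1, 0.946 for Gtse1 and 0.983 for Racgap1. For the genes of replication and their regulators it was 0.987 for Mcm2, 0.946 for Mcm4, 0.991 for Mcm7, 0.98 for Pcna, 0.986 for Rrm2, 0.966 for Tyms, 0.967 for Ccne1, 0.919 for Ccne2, 0.931 for E2f1 and 0.992 for Foxm1. In IRR_6w 2 of the 47 members passed Dixon's value. Replicate 1 lay below the others for Pcna (0.845) and replicate 3 above them for Tyms (0.84). Chance alone flags about 1 in 20 groups.

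The irradiation effect differed between 6 weeks and 1 day for Mki67 and for Top2a without Control_6w replicate 3 (edgeR's interaction test, adjusted p = 0.0337 for both). Neither passed in the 14 libraries, where 0 of all genes did. Without Control_6w replicate 3, limma, the replicate block and 9 libraries called 0 members, and DESeq2 called 13. Leaving out 1 more library gave 0 to 3.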

How the results depend on the processing

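Counts of members past a threshold follow, with all 14 libraries first. At 1 day 0 were called by the adjusted p and 5 by the unadjusted p, and leaving out 1 library gave 0 to 1. Of the 4 lower at an unadjusted p, limma gave 0, no filter 11 and the libraries of 1 day alone 8, and left-out libraries gave 0 to 17. At 6 weeks 0 were called, 4 by the unadjusted p, and left-out libraries gave 0 to 0. The 0 higher at an unadjusted p became 2 with limma and 1 with the replicate block (left-out libraries, 0 to 12). The 4 lower became 2 with DESeq2, 0 with limma, 2 with library totals, 12 with no filter, 0 with the replicate block and 1 with the libraries of 6 weeks alone (left-out libraries, 0 to 12). Time in controls gave 0, and 13 by the unadjusted p (left-out libraries, 0 to 0). Time in irradiated hearts gave 0, 19 by the unadjusted p and 2 with DESeq2 (0 to 2). The change in effect gave 0 (0 to 2).

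Without Control_6w replicate 3, 1 member was called at 1 day, against 18 by the unadjusted p, 4 with DESeq2, 3 with no filter and 0 with limma, the replicate block, the libraries of 1 day alone or 9 libraries (0 to 2 without a further library). The 17 lower at an unadjusted p became 5 with limma, 10 with the block and 8 with the libraries of 1 day alone (9 to 20). At 6 weeks 0 became 12 by the unadjusted p, 8 with DESeq2, 1 with library totals and 2 with no filter (0 to 1), and the 12 higher at an unadjusted p became 19 with DESeq2 and 19 with library totals (10 to 17). Time in controls gave 1 by the unadjusted p (0 to 0). Time in irradiated hearts gave 2, against 26 by the unadjusted p, 23 with DESeq2, 6 with no filter, 1 with 9 libraries and 0 with limma (2 to 6, and 23 to 28 by the unadjusted p). The change in effect gave 2, against 25 by the unadjusted p, 13 with DESeq2 and 0 with limma, the block or 9 libraries (0 to 3), and the 25 became 16 with limma (19 to 28). The 9 libraries leave out those with many genes at 0 as well, chosen after seeing the data.

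At 6 weeks 38 of the 46 members tested in both fits turned from negative to positive without Control_6w replicate 3, and 0 turned the other way. The median over all genes went from -0.09 to 0.01, and the share of all genes that turned was not counted. Mki67 ran from -3.11 to 1.40 over left-out libraries, Pcna from -1.56 to 0.16, Rrm2 from -2.95 to 1.80 and Kif11 from -2.63 to 1.28. Library totals in place of TMM moved the median of all genes by 0.229 at 6 weeks (0.319 in 13 libraries), 0.314 between irradiated hearts and 0.0701 at 1 day. Replicate numbers do not pair the samples (correlation of same-numbered samples -0.405 to 0.494). Depth limits the cyclins and kinases, which had 1 to 44 counts each over the libraries of IRR_1d. The causes of these changes were not tested.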
